A study of Mus musculus with 22 samples.

Results

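The cytochrome P450 genes (Cyp genes) were taken as every gene whose single symbol in the array annotation was Cyp followed by a family number, a subfamily letter and a gene number. This rule found 81 of the 19938 genes measured, in 14 families and 35 subfamilies, with 43 genes in family 2, 13 in family 4 and 6 in family 3. Each had 1 probe set. P450 genes with other symbols, such as Cyp51, Tbxas1 and Ptgis, fell outside the rule, as did 7 Cyp probe sets that match several genes, and Cyp19a1 and Cyp24a1 were not analysed here.

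RNA was measured on 22 Affymetrix Mouse Gene arrays, 1 per sample, from RIP1-TAG2 (RT2) mice, a model of pancreatic neuroendocrine tumours. The samples were 3 normal islets, 3 hyperplastic islets, 3 angiogenic islets, 5 islet tumours, 5 metastasis-like primaries and 3 liver metastases. All of them, normal islets included, carry the RIP1-TAG2 genotype, in which an insulin promoter expresses the SV40 large T antigen in beta cells. The sources used here give no ages or strains, do not say how a primary tumour was called metastasis-like, and do not say whether samples came from separate animals. The p-values therefore describe the spread among these samples only.

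P450 enzymes are haem monooxygenases that insert an oxygen atom into their substrate, with electrons supplied by Por in the endoplasmic reticulum or by ferredoxin in mitochondria. Families 1 to 4 oxidise mainly drugs, other foreign compounds and fatty acids, and hepatocytes hold most of the enzyme in the body. The other families make or break down bile acids, steroid hormones, vitamin D and retinoic acid. Mouse subfamilies such as Cyp2c, Cyp2d and Cyp3a are clusters of closely similar genes, whose probe sets may respond to a neighbour's RNA, so the values of single members of these clusters are uncertain.

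Values are log2 intensities as deposited, and a level can be compared between samples but not between genes. Array medians lay between 7.08 and 7.22, and precision is limited by how few arrays each tissue has. Normal islets averaged 11.54 to 11.63 over 12 beta-cell markers, islet tumours 10.61 to 11.07, metastasis-like primaries 8.68 to 9.32 and liver metastases 9.20 to 9.84. The mean of 25 hepatocyte markers was 6.74 to 6.82 in normal islets, 6.58 to 6.93 in hyperplastic islets, 6.39 to 6.57 for islet tumours, 6.57 to 6.89 for metastasis-like primaries and 9.73 to 10.23 for liver metastases. The angiogenic islets differed among themselves, with hepatocyte means of 6.67 in AngiogenicI-93, 7.67 in Angiogenic2006 and 8.19 in Angiogenic2007. In such bulk samples, fewer cells of a type and less RNA per cell cannot be told apart.

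Of the 81 P450 genes, 58 (71.6%) differed among the 6 tissues (limma's moderated F test, adjusted p below 0.05), against 58.7% of all genes. The highest mean lay in liver metastases for 43 members, 53.1% of them, against 24.1% of all genes. Normal islets held the highest mean of 18 members (22.2%, against 29.2% of all genes). Angiogenic islets held that of 7 (8.64%, against 10.1%) and hyperplastic islets of 6 (7.41%, against 10.1%). Metastasis-like primaries held that of 4 (4.94%, against 13.8%) and islet tumours of 3 (3.7%, against 12.7%). Tissue means of a member spanned from 0.12 to 5.24 log2, with a median of 0.80. The span was 2 log2 or more for 18 members and below 0.3 log2 for 16. Many members were dim, as 27 of the 81 lay above the dimmest 25% of all genes by their mean over the arrays.

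**Figure D1:**
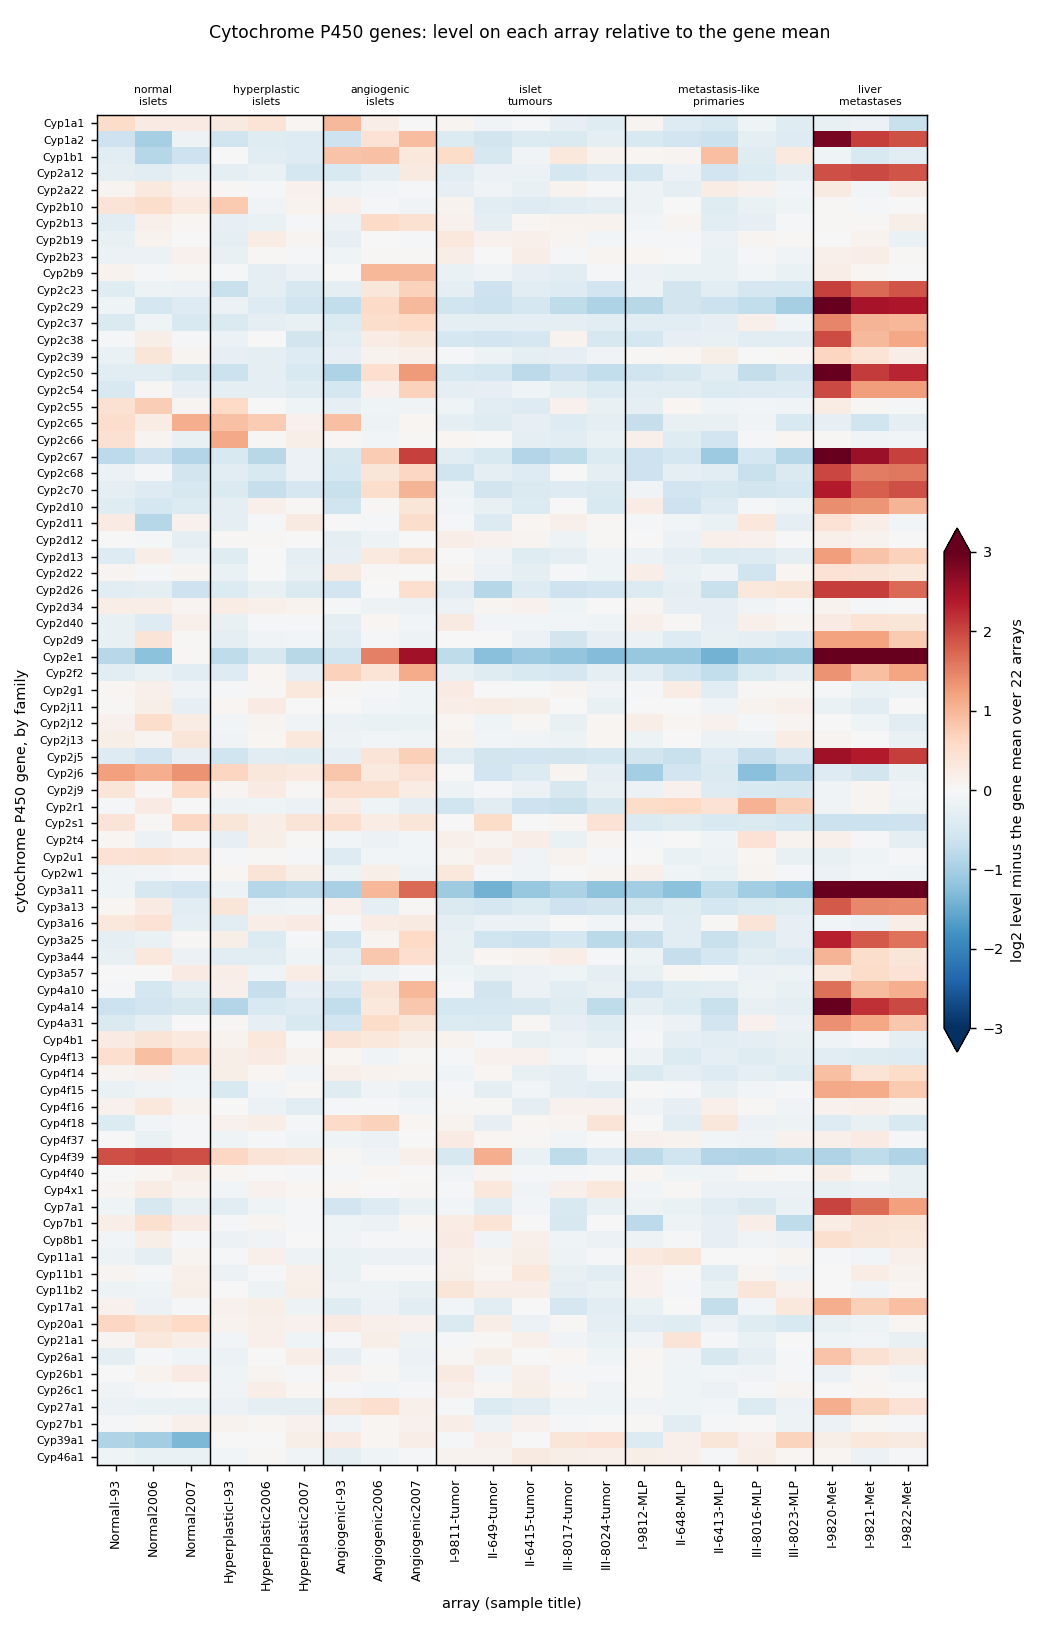
Level of each of the 81 P450 genes on each of the 22 arrays, as log2 intensity minus the gene's mean over all arrays; rows are genes by family, columns are arrays by tissue, and colours saturate beyond 3 log2 in either direction. Many family 2, 3 and 4 genes are highest on the 3 liver metastasis arrays, several of these are also raised in Angiogenic2006 and Angiogenic2007, and Cyp4f39 is highest in normal islets.

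Many drug-metabolising, fatty acid and bile acid P450 genes were higher in liver metastases than in metastasis-like primaries. Of the 81 members, 37 passed the test, 36 higher and 1 lower (limma's moderated test, adjusted p below 0.05). This is 45.7% of the members, against 15.7% of all genes, of which 7.8% were higher and 7.87% lower. The median difference was 0.23 log2 over the members and -0.02 over all genes. All 25 measured hepatocyte markers were also higher in liver metastases, by a median of 3.18 log2. Of the other marker lists, 6 of 12 acinar and 7 of 11 macrophage markers were lower, and 3 of 12 beta-cell markers were higher. The part of these cell types in the P450 differences was not tested.

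Cyp2e1, which oxidises ethanol and other small molecules, had levels of 9.78, 10.25 and 10.91 in liver metastases, against 4.84, 5.11, 5.11, 5.13 and 5.18 in metastasis-like primaries. Every metastasis lay far above every primary. The difference was 5.24 ± 0.42 log2 (SE), 37.7-fold, with adjusted p = 1.16e-08 by limma. Cyp3a11, the main mouse liver enzyme of the Cyp3a subfamily, which acts on many drugs and steroids, stood at 8.91, 9.16 and 9.87 in liver metastases, against 3.99, 4.06, 4.18, 4.18 and 4.46 in metastasis-like primaries. Its difference of 5.14 ± 0.36 log2 (35.2-fold, adjusted p = 1.56e-09) was nearly the size of that of Cyp2e1. The groups did not overlap for any of the 37 called members, and the share of all genes without overlap is not given here.

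Upstream DNA is shown for Cyp2e1 and Cyp3a11, the genes with the largest differences, and for Cyp2c67 and the bile acid gene Cyp8b1, picked because they hold the motif CAAAGTCCA and rose. Cyp3a16 and Cyp2c65 hold the same motif and did not pass the test. RefSeq promoter windows (GRCm38.p6, 250 bases before to 50 after the gene start) were found for 62 of the 81 members. Printed below are the 250 bases before the start, read 5′ to 3′ on the gene's strand. Capitals mark TATAAA, the TATA box, in Cyp2e1, and CAAAGTCCA, a core motif of the liver nuclear receptor HNF4, in the others. Cyp2e1 lies at chr7:140763569-140763818 (plus strand), Cyp3a11 at chr5:145879855-145880104 and Cyp3a16 at chr5:145469724-145469973 (minus strand).
Cyp2e1: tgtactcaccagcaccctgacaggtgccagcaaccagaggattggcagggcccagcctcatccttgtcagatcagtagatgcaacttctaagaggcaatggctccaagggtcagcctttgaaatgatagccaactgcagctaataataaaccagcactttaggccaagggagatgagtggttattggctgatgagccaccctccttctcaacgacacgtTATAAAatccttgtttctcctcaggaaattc
Cyp3a11: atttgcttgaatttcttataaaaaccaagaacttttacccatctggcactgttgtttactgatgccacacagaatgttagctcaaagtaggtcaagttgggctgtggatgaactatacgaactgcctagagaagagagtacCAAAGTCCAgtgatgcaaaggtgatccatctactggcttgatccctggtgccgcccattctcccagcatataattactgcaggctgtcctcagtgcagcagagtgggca
Cyp3a16: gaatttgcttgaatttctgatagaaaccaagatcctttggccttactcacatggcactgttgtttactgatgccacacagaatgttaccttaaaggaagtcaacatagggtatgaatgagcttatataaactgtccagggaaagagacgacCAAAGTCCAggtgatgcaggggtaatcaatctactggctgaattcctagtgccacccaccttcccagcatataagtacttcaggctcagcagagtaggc
Cyp2c67 lies at chr19:39649043-39649292 (minus strand), Cyp2c65 at chr19:39060756-39061005 (plus strand) and Cyp8b1 at chr9:121916306-121916555 (minus strand).
Cyp2c67: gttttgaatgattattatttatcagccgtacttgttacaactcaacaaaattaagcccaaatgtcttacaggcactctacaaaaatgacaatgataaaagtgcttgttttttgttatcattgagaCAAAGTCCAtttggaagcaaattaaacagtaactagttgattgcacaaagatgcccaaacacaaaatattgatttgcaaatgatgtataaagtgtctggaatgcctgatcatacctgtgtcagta
Cyp2c65: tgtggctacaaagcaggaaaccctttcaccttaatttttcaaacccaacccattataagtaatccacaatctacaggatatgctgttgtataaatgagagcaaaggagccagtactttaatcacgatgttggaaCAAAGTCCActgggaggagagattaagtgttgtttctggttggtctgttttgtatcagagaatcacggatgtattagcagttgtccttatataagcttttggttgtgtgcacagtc
Cyp8b1: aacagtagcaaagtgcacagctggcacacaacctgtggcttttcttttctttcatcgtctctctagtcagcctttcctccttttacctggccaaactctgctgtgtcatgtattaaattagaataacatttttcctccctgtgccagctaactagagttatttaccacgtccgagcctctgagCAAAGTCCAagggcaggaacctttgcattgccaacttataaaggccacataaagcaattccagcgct

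The motif CAAAGTCCA, searched on both strands, was found in the windows of 7 members (Cyp2c65, Cyp2c67, Cyp2c68, Cyp2c70, Cyp3a11, Cyp3a16 and Cyp8b1) and in 0.475% of 32851 RefSeq windows of the same length. It was held by 5 of the 26 members with a window that were higher in liver metastases and by 2 of the other 36. Its shorter form CAAAGTCC was held by 5 of the 26 and 4 of the 36 (1.42% of all windows). The search covered 12 motifs. Forms for HNF1, C/EBP and PAR bZIP factors and a direct repeat of AGGTCA were found in 0 of the 26. Of these, only the looser HNF1 forms were found among the 36, in 1 member. Cyp3a11 and Cyp3a16 share 235 of 314 aligned positions (74.8%) of their windows. The motif CAAAGTCCA starts 109 bases before the start of Cyp3a11 and 99 before that of Cyp3a16. Cyp3a16 nevertheless stood at 3.79 to 4.16 in liver metastases, against 3.62 to 4.35 in metastasis-like primaries, and did not pass the test. Cyp2c65 likewise holds the motif and stood at 3.79 to 4.15 in liver metastases, against 3.71 to 4.28 in metastasis-like primaries. Both genes are dim in these groups, and Cyp3a16 lay between 3.62 and 4.39 on all arrays. At such levels a gene that was not detected cannot be told from one that did not change. TATAAA was found in 16 of the 26 higher members and 9 of the other 36 (13.6% of all windows). GCGTG, the core bound by the aryl hydrocarbon receptor (Ahr) with Arnt, was found in 2 of the 26 and 12 of the 36 (32.4% of all windows). AGTTCA, to which nuclear receptors bind in pairs, was found in 5 of the 26 and 3 of the 36 (14% of all windows). A match is a description of these letters and not a measured binding site.

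In the Cyp2c subfamily, which holds fatty acid epoxygenases and drug-oxidising enzymes, 10 of 13 members were higher in liver metastases, by a subfamily median of 1.86 log2. In the RefSeq order along chromosome 19 the 3 that were not called, Cyp2c55, Cyp2c65 and Cyp2c66, lie side by side at one end of the cluster, and the other 10 follow them. Cyp2c29, an arachidonic acid epoxygenase, had 8.10, 8.14 and 9.38 in liver metastases, against 4.66 to 5.11 in metastasis-like primaries (3.63 ± 0.28 log2, adjusted p = 7.59e-09). Cyp2c67 differed by 3.36 log2 and Cyp2c50 by 3.02. Cyp2c70, which makes the muricholic acids typical of mouse bile, had 7.79, 7.95 and 8.38 in liver metastases, against 5.43 to 5.91 in metastasis-like primaries (2.48 ± 0.23). Cyp2c23, an epoxygenase known from kidney, had 7.74, 7.92 and 8.09 in liver metastases, against 5.50 to 5.88 in metastasis-like primaries (2.29 ± 0.16). Cyp2c39 had the smallest called rise of the subfamily (0.36 ± 0.11, adjusted p = 0.0356).

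The other subfamilies of family 2 were split. Cyp2j5, a kidney and liver epoxygenase, had the smallest p among the members, with 7.86, 8.16 and 8.33 in liver metastases, against 5.10, 5.12, 5.23, 5.28 and 5.40 in metastasis-like primaries (2.89 ± 0.15 log2, 7.4-fold, adjusted p = 2.25e-11). None of the other 5 Cyp2j genes passed the test in this comparison, with differences from -0.22 to 0.45. Cyp2a12, a liver steroid hydroxylase, had 7.13, 7.16 and 7.21 in liver metastases, against 4.66 to 5.05 in metastasis-like primaries (2.33 ± 0.13), while Cyp2a22 was not called. Of 9 Cyp2d genes 5 rose, led by Cyp2d26 (2.08 ± 0.22), which stood at 8.49, 8.87 and 8.88 in liver metastases and at 6.13, 6.39, 6.53, 7.11 and 7.15 in metastasis-like primaries. Cyp2d10 (1.44), Cyp2d9 (1.36), a testosterone hydroxylase of male mouse liver, Cyp2d13 (1.24) and Cyp2d22 (0.51) were the other 4. RefSeq lists Cyp2d13 as a transcribed pseudogene. Cyp2f2, a naphthalene-activating enzyme best known from lung, had 7.24, 7.53 and 7.69 in liver metastases, against 5.62 to 6.08 in metastasis-like primaries (1.61 ± 0.14). The 5 Cyp2b genes, whose liver members respond to phenobarbital, had 0 calls, with differences from -0.01 to 0.26 log2.

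**Figure D2:**
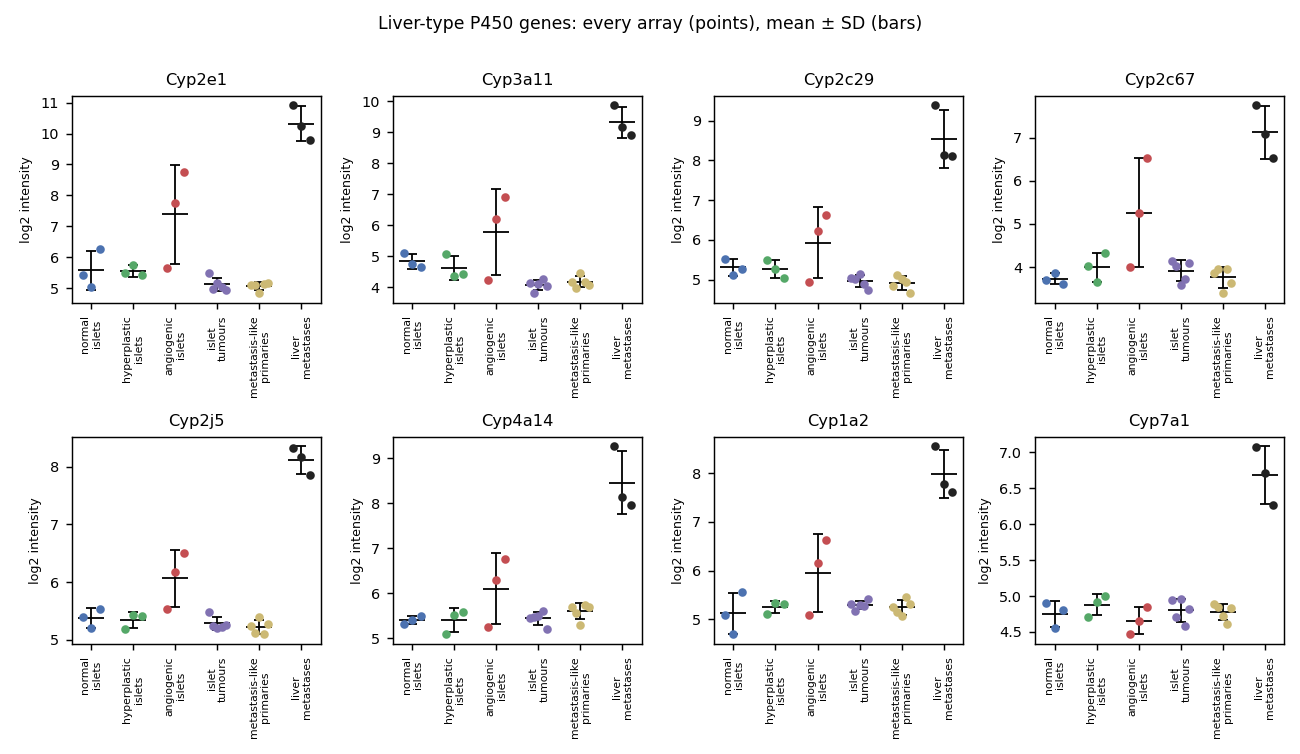
Log2 intensity of 8 liver-type P450 genes on every array, with the mean and SD of each tissue as bars; each panel has its own scale. Liver metastases lie above every other array except for Cyp2c67, where Angiogenic2007 reaches the lowest metastasis (6.53 each), and the angiogenic islets are spread widely in all panels but that of Cyp7a1.

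Family 3 and family 4 members rose as well. Of 6 Cyp3a genes 5 were higher in liver metastases, and Cyp3a16 was not called. Cyp3a25 had 7.66, 7.86 and 8.36 in liver metastases, against 5.34 to 5.78 in metastasis-like primaries (2.41 ± 0.21 log2). Cyp3a13, a Cyp3a enzyme of liver and gut, had 6.76, 6.79 and 7.20 in liver metastases, against 4.82 to 4.98 in metastasis-like primaries (3.99-fold, adjusted p = 9.94e-10). All 3 Cyp4a genes, which hydroxylate the end of fatty acid chains, rose, with Cyp4a14 at 7.95, 8.15 and 9.26 in liver metastases and at 5.29 to 5.74 in metastasis-like primaries (2.86 ± 0.26). Of 8 Cyp4f genes the neighbours Cyp4f15 (1.09 ± 0.11) and Cyp4f14 (0.98 ± 0.10), a leukotriene hydroxylase, rose. Cyp4f15 had 7.03, 7.33 and 7.37 in liver metastases, against 6.24 at most in metastasis-like primaries. In family 1, Cyp1a2, a constitutive liver enzyme that oxidises caffeine, had 7.62, 7.78 and 8.56 in liver metastases, against 5.06 to 5.45 in metastasis-like primaries (2.74 ± 0.25). Its neighbour Cyp1a1, which Ahr ligands induce, had 4.97, 5.41 and 5.44 in liver metastases, against 5.17 to 5.71 in metastasis-like primaries, and was not called. Cyp1b1, which acts on oestradiol and polycyclic hydrocarbons, had 6.31, 6.44 and 6.64 in liver metastases, against 6.42 to 7.67 in metastasis-like primaries, and was not called either.

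**Figure D3:**
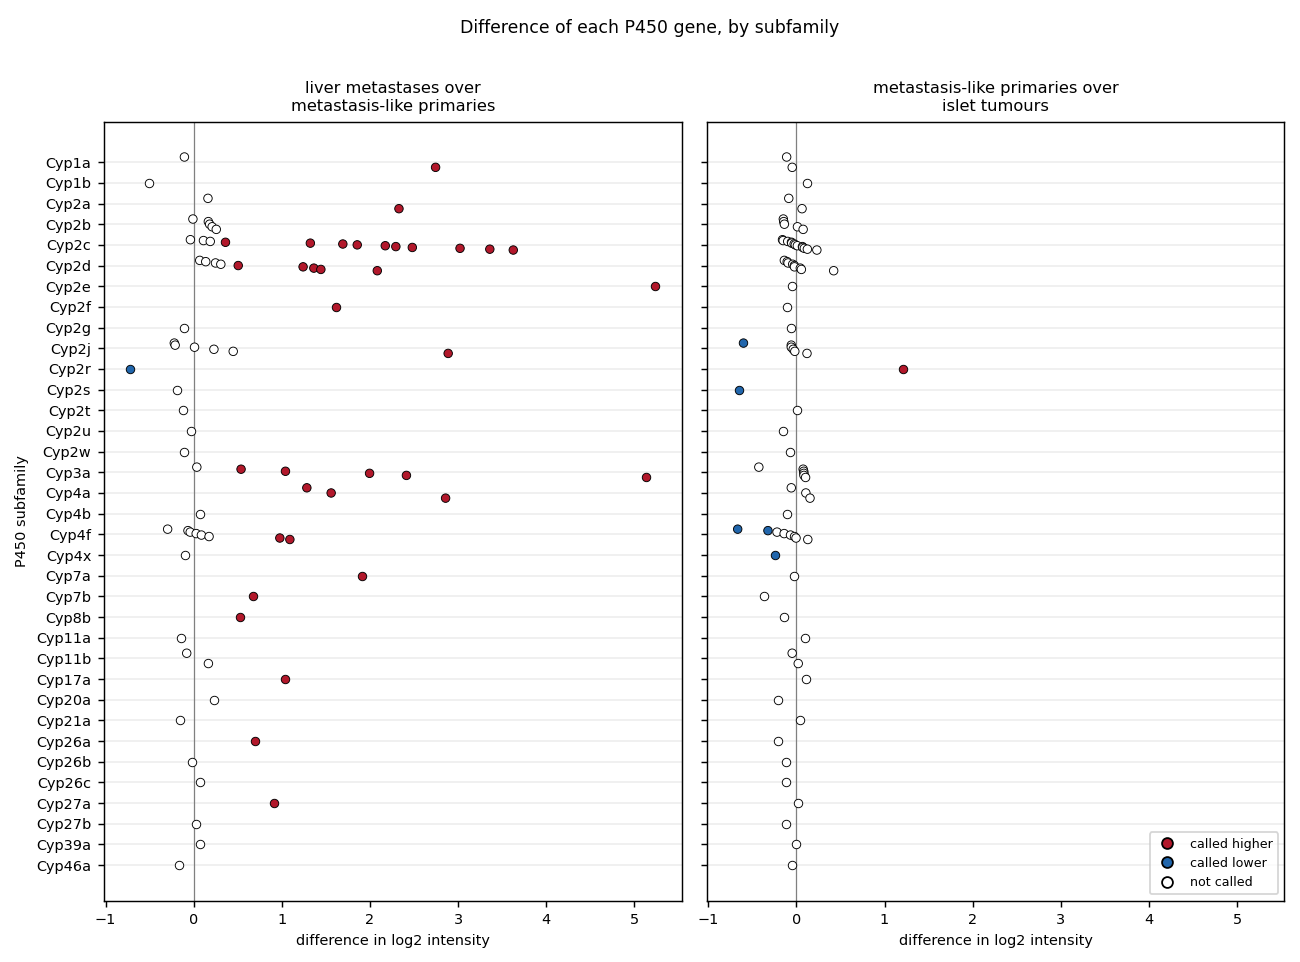
Difference in log2 intensity of each of the 81 P450 genes (1 point each) by subfamily, for liver metastases over metastasis-like primaries on the left and metastasis-like primaries over islet tumours on the right; filled points passed the test (red higher, blue lower). On the left 36 genes are called higher and 1 lower, and on the right 1 higher and 5 lower.

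Of 6 bile acid and sterol genes 4 were higher in liver metastases. Cyp7a1, the rate-limiting enzyme of classic bile acid synthesis, had 6.27, 6.72 and 7.07 in liver metastases, against 4.61, 4.73, 4.83, 4.85 and 4.89 in metastasis-like primaries (1.91 ± 0.14 log2, 3.75-fold, adjusted p = 2.4e-09). Cyp27a1, the mitochondrial sterol hydroxylase of the alternative route, had 7.54, 7.77 and 8.20 in liver metastases, against 6.70 to 7.02 in metastasis-like primaries (0.91 ± 0.12). Cyp7b1, which follows it in that route, had 7.20, 7.35 and 7.37 in liver metastases, against 6.20, 6.22, 6.73, 6.82 and 7.19 in metastasis-like primaries (0.68 ± 0.19). Cyp8b1, which directs synthesis to cholic acid, had 6.41, 6.46 and 6.58 in liver metastases, against 5.85 to 6.06 in metastasis-like primaries (0.53 ± 0.09). Cyp39a1, an oxysterol hydroxylase, had 9.03, 9.11 and 9.16 in liver metastases, against 8.43 to 9.52 in metastasis-like primaries. Cyp46a1, the cholesterol hydroxylase of neurons, had 7.44, 7.56 and 7.66 in liver metastases, against 7.54 to 7.81 in metastasis-like primaries. Neither of these was called.

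Among 5 steroid hormone genes, Cyp17a1, the hydroxylase and lyase on the way to androgens, had 6.72, 6.91 and 7.10 in liver metastases, against 5.29, 5.81, 5.93, 6.02 and 6.33 in metastasis-like primaries (1.03 ± 0.16 log2, adjusted p = 0.000137). The cholesterol side-chain enzyme Cyp11a1, the corticosterone and aldosterone synthases Cyp11b1 and Cyp11b2, and Cyp21a1 were called in none of the 7 comparisons. Over the 22 arrays Cyp11a1 lay between 5.18 and 5.82, Cyp11b1 between 5.55 and 6.20, Cyp11b2 between 5.88 and 6.53 and Cyp21a1 between 5.57 and 6.18. Among the enzymes that break down retinoic acid, Cyp26a1 had 5.60, 5.78 and 6.19 in liver metastases, against 4.85 to 5.38 in metastasis-like primaries (0.70 ± 0.13). Cyp26b1 (6.48 to 6.93 over all arrays) and Cyp26c1 (6.32 to 6.70) were called nowhere. In the vitamin D pathway Cyp2r1, the hydroxylase that makes the circulating form, was the 1 member that fell, with 4.91, 4.95 and 5.14 in liver metastases, against 5.49, 5.61, 5.64, 5.76 and 6.09 in metastasis-like primaries (-0.72 ± 0.12, adjusted p = 0.000276). The activating enzyme Cyp27b1 lay between 5.77 and 6.32 on all arrays and was called nowhere.

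The titles of all 3 liver metastases begin with I, whereas those of the primaries begin with I, II or III, codes that the labels do not explain. Against the 1 metastasis-like primary of prefix I alone, whose spread was taken from the other groups, 34 members were called, 33 higher and 1 lower, and 33 of these are among the 37. Leaving out any 1 array gave 35 to 38 calls. Shares of all genes called in these settings are not given here.

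Against islet tumours, 43 members passed the test in liver metastases, 37 higher and 6 lower. This is 53.1% of the members, against 36.6% of all genes, of which 17.3% were higher and 19.3% lower. Over the members the median difference was 0.24 log2, and over all genes -0.03. Of the 37 that rose, 35 were also higher than in metastasis-like primaries, and both comparisons use the same 3 liver metastasis arrays. The share of all genes higher in both is not given here. Cyp3a11 (5.24 ± 0.36 log2), Cyp2e1 (5.18 ± 0.42), Cyp2c29 (3.57 ± 0.28), Cyp2c67 (3.21), Cyp2c50 (3.11), Cyp4a14 (3.01), Cyp2j5 (2.83), Cyp1a2 (2.70), Cyp2d26 (2.51) and Cyp3a25 led. Cyp2d40 (0.36) and Cyp2r1 (0.49 ± 0.12) rose here but not over metastasis-like primaries, and Cyp7b1, called there, was not called here (7.20 to 7.37 in liver metastases, against 6.51 to 7.39 in islet tumours). All 25 hepatocyte markers were higher in this comparison too. Of the other marker lists, 12 of 12 acinar, 10 of 12 beta-cell and 8 of 10 endothelial markers were lower and none higher. Of 11 macrophage markers 8 were lower and 1 higher, and of 10 ductal markers 6 were lower and 1 higher. The part of these cell types in the P450 differences, lower ones included, was not tested.

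None of the 6 members that fell against islet tumours is a Cyp2c, Cyp2d or Cyp3a gene. Cyp2s1, a P450 of surface epithelia, had 6.44, 6.44 and 6.46 in liver metastases, against 7.07, 7.09, 7.14, 7.51 and 7.63 in islet tumours (-0.84 ± 0.12 log2, adjusted p = 1.69e-05). Cyp4f39, a hydroxylase of very long fatty acids known from skin, had 5.92, 5.93 and 6.07 in liver metastases, against 6.06, 6.35, 6.44, 6.63 and 7.91 in islet tumours (-0.71 ± 0.24). Cyp4f18 (-0.43), a leukotriene hydroxylase of neutrophils, Cyp4f13 (-0.39), Cyp4x1 (-0.34) and Cyp46a1 (-0.22) fell by less. The value of Cyp4f39 rests on II-649-tumor, without which it was -0.40 (adjusted p = 0.00826), and its call ended without I-9820-Met (0.0804), I-9821-Met (0.0537) or I-9822-Met (0.0819). The call of Cyp4f18 ended without I-9811-tumor (0.0504), III-8024-tumor (0.0797), I-9820-Met (0.0902) or I-9822-Met (0.115). That of Cyp46a1 ended without II-6415-tumor (0.0683), I-9821-Met (0.179) or I-9822-Met (0.0718), and also with quantile normalization (0.0767) or median centring (0.0749). Against the 1 islet tumour of prefix I alone, 32 members were called, and 5 of the 6 lower calls ended. The differences there were -0.38 for Cyp4f39 (adjusted p = 0.057), -0.46 for Cyp4f18 (0.175), -0.30 for Cyp4f13 (0.137), -0.17 for Cyp4x1 (0.264) and -0.15 for Cyp46a1 (0.397). With the title code as a block, the calls of Cyp4f39 (0.166), Cyp4f18 (0.0895), Cyp4x1 (0.109) and Cyp46a1 (0.118) ended as well. Shares of all genes called in these settings are not given here.

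Metastasis-like primaries and islet tumours differed in few P450 genes. Of the 81 members 6 were called, 1 higher and 5 lower in metastasis-like primaries, which is 7.41% of the members, against 26.5% of all genes (12.3% higher and 14.2% lower). The median difference was -0.05 log2 over the members and -0.02 over all genes. Of the marker lists, 11 of 12 beta-cell, 8 of 10 endothelial and 5 of 10 ductal markers were lower in metastasis-like primaries and none higher. Of 7 other islet endocrine markers 4 were lower and 2 higher. The part of these cell types in the P450 differences was not tested. Cyp2r1, the vitamin D hydroxylase, had 5.49, 5.61, 5.64, 5.76 and 6.09 in metastasis-like primaries, against 4.39, 4.43, 4.46, 4.58 and 4.70 in islet tumours. It rose by 1.21 ± 0.11 log2 (2.31-fold, adjusted p = 1.72e-08), the groups did not overlap, and its mean was the highest of the 6 tissues (5.72 ± 0.23, SD, n = 5).

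Cyp2s1 had 6.57, 6.63, 6.65, 6.66 and 6.71 in metastasis-like primaries, against 7.07 to 7.63 in islet tumours (-0.65 ± 0.11 log2, adjusted p = 8.7e-05), a difference that separated all 10 arrays. Cyp2j6 had 5.66, 5.89, 5.99, 6.34 and 6.48 in metastasis-like primaries, against 6.34, 6.50, 6.62, 6.91 and 6.98 in islet tumours (-0.60 ± 0.15). Cyp4f39 had 5.92 to 6.22 in metastasis-like primaries, against 6.06 to 7.91 in islet tumours (-0.67 ± 0.21, adjusted p = 0.0225), and without II-649-tumor it fell by 0.36 (adjusted p = 0.00944). Cyp4f13 had 7.78 to 8.05 in metastasis-like primaries, against 8.13 to 8.33 in islet tumours (-0.32 ± 0.08). Cyp4x1 fell by 0.24 ± 0.08 (adjusted p = 0.0265), a call that ended without II-649-tumor (0.0886), III-8024-tumor (0.0857), II-6413-MLP (0.0562), III-8016-MLP (0.0586) or III-8023-MLP (0.0605).

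Between the tumour classes no Cyp2c, Cyp2e, Cyp3a or Cyp4a gene passed the test. Of the 25 hepatocyte markers 4 were higher and 1 lower in metastasis-like primaries, among them Alb (2.33 ± 0.71 log2), Trf (1.91) and Apoc3 (1.39), and Tat fell by 1.77. Alb reached 11.78 in III-8016-MLP, against 6.04 to 8.24 in islet tumours. Cyp2e1 stood at 5.13 in that same array, and over the classes at 4.84 to 5.18 in metastasis-like primaries, against 4.96 to 5.48 in islet tumours. Cyp3a11 had 3.99 to 4.46 in metastasis-like primaries, against 3.81 to 4.28 in islet tumours. Cyp2d26 alone of the family 2 members had a difference over 0.4 log2 in this direction beside Cyp2r1, with 7.11 in III-8016-MLP and 7.15 in III-8023-MLP, and it was not called.

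Hyperplastic islets differed from normal islets in few P450 genes. Of the 81 members 6 were called, 1 higher and 5 lower in hyperplastic islets, or 7.41% of the members, against 8.64% of all genes (4.46% higher and 4.17% lower), a share near the background. Members had a median difference of -0.04 log2 and all genes one of -0.01. The oxysterol hydroxylase Cyp39a1 had 8.87, 8.87 and 9.02 in hyperplastic islets, against 7.50, 7.81 and 7.96 in normal islets (1.16 ± 0.19 log2, adjusted p = 0.000211). Its level then stayed between 8.43 and 9.52 on every array of the later tissues.

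Cyp4f39 had 7.17, 7.21 and 7.45 in hyperplastic islets, against 8.76, 8.76 and 8.84 in normal islets (-1.51 ± 0.27 log2, 2.85-fold lower, adjusted p = 0.000786). Cyp2j6 had 7.20, 7.25 and 7.54 in hyperplastic islets, against 8.01, 8.13 and 8.25 in normal islets (-0.80 ± 0.19). Cyp4f13 (-0.49 ± 0.10), Cyp2u1 (-0.45 ± 0.10), a fatty acid hydroxylase of brain, and Cyp20a1 (-0.44 ± 0.12), an orphan P450, fell too. No called member overlapped between the groups, and the share of all genes without overlap is not given here. The call of Cyp2j6 ended without Hyperplastic2007 (adjusted p = 0.0528). That of Cyp20a1 ended without NormalI-93 (0.0766), Normal2007 (0.0787), HyperplasticI-93 (0.0789), Hyperplastic2006 (0.0592) or Hyperplastic2007 (0.066).

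A few P450 genes were higher in angiogenic than in hyperplastic islets, most of them mainly on 2 of the 3 angiogenic arrays. Of the 81 members 6 were called, all higher, which is 7.41%, against 2.53% of all genes (2.29% higher and 0.246% lower). The median difference was 0.06 log2 over the members and -0.04 over all genes. Cyp2e1 had 5.65 in AngiogenicI-93, 7.76 in Angiogenic2006 and 8.76 in Angiogenic2007, against 5.42, 5.48 and 5.77 in hyperplastic islets (1.83 ± 0.47, adjusted p = 0.0398). The first of these arrays lay within the hyperplastic range and the others above it, in the order of their hepatocyte marker means (6.67, 7.67 and 8.19). Cyp2f2 had 7.04, 6.75 and 7.46 in the same order, against 5.95 to 6.42 in hyperplastic islets (0.92 ± 0.16, adjusted p = 0.00141). Cyp27a1 had 7.46, 7.61 and 7.25, against 6.81 to 6.93 in hyperplastic islets (0.59 ± 0.13), and AngiogenicI-93 was not the lowest array for either of these genes. The call of Cyp2e1 ended without HyperplasticI-93 (adjusted p = 0.101), Hyperplastic2006 (0.0971), Hyperplastic2007 (0.143), Angiogenic2006 (0.178) or Angiogenic2007 (0.157), and its difference was 1.15 without Angiogenic2007. That of Cyp27a1 ended without Hyperplastic2006 (0.0809), Hyperplastic2007 (0.0697), AngiogenicI-93 (0.0624) or Angiogenic2006 (0.117).

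Cyp2b9, a Cyp2b gene expressed mainly in female mouse liver, had 5.25, 6.24 and 6.21 in the 3 angiogenic arrays in that order, against 4.96 to 5.19 in hyperplastic islets (0.83 ± 0.17 log2). Cyp2c23 had 5.76, 6.38 and 6.74, against 5.38 to 5.75 in hyperplastic islets (0.73 ± 0.17), and Cyp2j5 had 5.53, 6.18 and 6.50 in those arrays, against 5.19 to 5.44 in hyperplastic islets (0.72 ± 0.17). With AngiogenicI-93 as the lone angiogenic array, whose spread was taken from the other groups, Cyp2f2 was the 1 member called, and the difference of Cyp2e1 was 0.09 (adjusted p = 0.956). Without AngiogenicI-93, 18 members were called, all higher, and the share of all genes called without that array is not given here. The call of Cyp2b9 ended without Angiogenic2006 (adjusted p = 0.0645). That of Cyp2c23 ended without HyperplasticI-93 (0.105), Hyperplastic2007 (0.0809), Angiogenic2006 (0.112) or Angiogenic2007 (0.101). The Cyp2j5 call did so without HyperplasticI-93 (0.0947), Hyperplastic2006 (0.0554), Hyperplastic2007 (0.0555), Angiogenic2006 (0.108) or Angiogenic2007 (0.0905). The count of calls was 1 without Angiogenic2006, 3 without HyperplasticI-93 or Hyperplastic2006 and 2 without Hyperplastic2007.

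Of the 25 hepatocyte markers 3 were called higher in angiogenic islets and none lower, and their part in the P450 differences was not tested. Of 10 fibroblast markers 9 were higher as well, with means of 9.66 to 9.84 in angiogenic islets, against 8.19 to 8.29 in hyperplastic islets, on all 3 arrays alike, and 8 of 11 macrophage and 6 of 10 endothelial markers were higher too. Cyp1b1 had 7.62, 7.66 and 7.09 in the 3 angiogenic arrays, against 6.39 to 6.79 in hyperplastic islets, and was not called (0.92 log2).

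**Figure D4:**
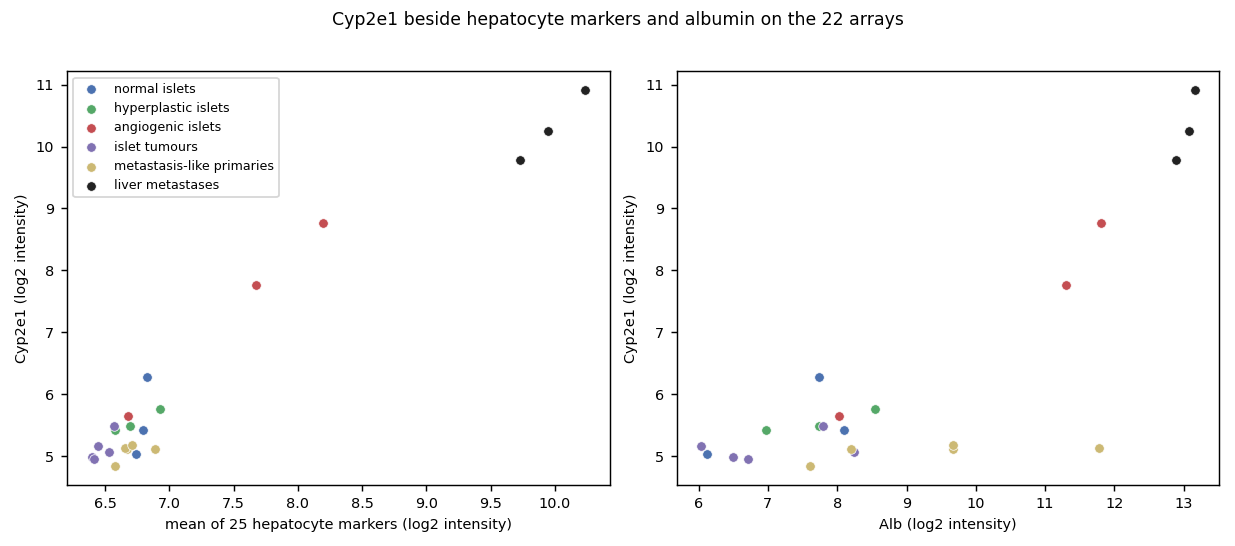
Cyp2e1 (log2 intensity) against the mean of 25 hepatocyte markers (left) and against Alb (right) on the 22 arrays, coloured by tissue. On the left Angiogenic2006, Angiogenic2007 and the 3 liver metastases stand apart from the other 17 arrays on both axes; on the right the metastasis-like primaries reach 11.78 for Alb with Cyp2e1 between 4.84 and 5.18.

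Islet tumours had lower levels of several liver-type P450 genes than angiogenic islets. Of the 81 members 15 were called, 1 higher and 14 lower, or 18.5%, against 9.54% of all genes (3.09% higher and 6.45% lower). Members had a median difference of -0.17 log2 and all genes one of 0.05. The 3 angiogenic arrays also entered the comparison with hyperplastic islets. Of the 14, 9 were also higher in liver metastases than in metastasis-like primaries, as were 36 of all 81 members. The share of all genes called in both comparisons is not given here. Markers of several cell types were lower in islet tumours too, with 16 of 25 for hepatocytes, 9 of 10 for fibroblasts, 7 of 10 for endothelium, 5 of 8 for pericytes and smooth muscle, 6 of 10 for lymphocytes and 5 of 7 for other islet endocrine cells. Their part in the P450 differences was not tested.

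Cyp2e1 had 4.96, 4.99, 5.06, 5.16 and 5.48 in islet tumours, against 5.65, 7.76 and 8.76 in angiogenic islets (-2.26 ± 0.42 log2, adjusted p = 0.00185). Cyp3a11 had 3.81 to 4.28 in islet tumours, against 4.25, 6.21 and 6.92 in angiogenic islets (-1.72 ± 0.36), and Cyp2c67 had 3.59 to 4.14 in islet tumours, against 4.01, 5.24 and 6.53 (-1.35 ± 0.35). AngiogenicI-93 lay inside the tumour range for Cyp3a11, Cyp2c67, Cyp2c23 (-0.68 ± 0.16) and Cyp2c29 (-0.96 ± 0.28). Cyp2f2 fell by 1.10 ± 0.14 (adjusted p = 4.15e-05), with 5.85 to 6.13 in islet tumours, against 6.75 to 7.46 in angiogenic islets. With the title code as a block the difference was -1.41 for Cyp2e1 (adjusted p = 0.0893), -0.76 for Cyp2c67 (0.282) and -0.19 for Cyp2c23 (0.484). These calls ended, as did those of Cyp3a11 (0.101), Cyp2c29 (0.233), Cyp2b9 (0.0513), Cyp2j5 (0.118) and Cyp46a1 (0.0561). A fit on the compared groups only ended the calls of Cyp3a11 (0.0737), Cyp2c67 (0.116), Cyp2c29 (0.115), Cyp2b9 (0.0515), Cyp2c23 (0.0814) and Cyp46a1 (0.0724). With AngiogenicI-93 as the lone angiogenic array 9 members were called, 2 higher and 7 lower, and 6 of these are among the 15. The difference was then -0.52 for Cyp2e1 (adjusted p = 0.444), -0.18 for Cyp3a11 and 0.03 for Cyp2c29, whose sign turned. The call of Cyp2c67 ended without Angiogenic2006 (adjusted p = 0.0598) or Angiogenic2007 (0.14), where the difference was -0.72. That of Cyp2c29 ended without Angiogenic2006 (0.151), Angiogenic2007 (0.224, difference -0.61), I-9811-tumor (0.0517), II-649-tumor (0.0543), III-8017-tumor (0.0509) or III-8024-tumor (0.0658), and without AngiogenicI-93 the difference was -1.46 (0.00101).

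Cyp2b9 (-0.84), Cyp2j5 (-0.79) and Cyp27a1 (-0.54) fell too, and with AngiogenicI-93 alone Cyp2b9 differed by -0.19 (adjusted p = 0.427) and Cyp2j5 by -0.25 (0.433). Lower as well were Cyp2j6 (-0.76), Cyp2j9 (-0.62 ± 0.13), Cyp3a13 (-0.48), Cyp2r1 (-0.48) and Cyp4b1 (-0.42), a lung P450. Cyp2j9 had 5.32 to 5.76 in islet tumours, against 6.31, 6.28 and 6.03 in AngiogenicI-93, Angiogenic2006 and Angiogenic2007. The 1 member that rose was Cyp46a1, with 7.71 to 7.88 in islet tumours, against 7.33, 7.47 and 7.57 in angiogenic islets (0.31 ± 0.08, adjusted p = 0.0132, but 0.132 without AngiogenicI-93). The call of Cyp2j6 also ended without AngiogenicI-93 (0.0866), and that of Cyp2c23 without Angiogenic2007 (0.0662).

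Between the ends of the islet series, 18 members differed between islet tumours and normal islets, 3 higher and 15 lower. This is 22.2% of the members, against 29% of all genes (13% higher and 16.1% lower). The median difference was -0.08 log2 over the members and -0.01 over all genes. Of the marker lists, 6 of 7 other islet endocrine, 5 of 12 beta-cell and 5 of 10 ductal markers were lower in islet tumours. Of 10 endothelial markers 2 were lower, and of 25 hepatocyte markers 6 were lower and 1 higher. Higher were 8 of 11 macrophage, 5 of 10 fibroblast and 3 of 8 pericyte and smooth muscle markers. The other islet endocrine markers averaged 8.05 to 8.74 in islet tumours, against 10.83 to 11.06 in normal islets. Their part in the P450 differences was not tested. Cyp4f39 had the largest difference (-2.11 ± 0.24 log2, 4.31-fold lower, adjusted p = 9.2e-07), with 6.06, 6.35, 6.44, 6.63 and 7.91 in islet tumours, against 8.76, 8.76 and 8.84 in normal islets. Cyp2j6 had 6.34 to 6.98 in islet tumours, against 8.01 to 8.25 in normal islets (-1.46 ± 0.17, adjusted p = 1.11e-06). Over the tissues from normal islets onward the mean of Cyp2j6 was 8.13, 7.33, 7.43, 6.67, 6.07 and 6.52.

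Cyp39a1 remained higher in islet tumours, with 8.81 to 9.29, against 7.50 to 7.96 in normal islets (1.27 ± 0.17 log2, adjusted p = 4.49e-06). With the title code as a block its difference was 0.79 (adjusted p = 0.00587). Cyp46a1 (0.34 ± 0.08) and Cyp1b1 (0.68 ± 0.23) rose as well, and Cyp1b1 overlapped, with 6.29 to 7.33 in islet tumours, against 5.91 to 6.46 in normal islets. The call of Cyp1b1 ended without Normal2006 (adjusted p = 0.166), Normal2007 (0.0797), I-9811-tumor (0.0835), III-8017-tumor (0.0649) or III-8024-tumor (0.0521), with the block (0.212) and with array weights (0.0929, difference 0.50). Among the lower members were Cyp2c65 (-0.93 ± 0.21), Cyp20a1 (-0.69), Cyp2b10 (-0.64), the phenobarbital-induced gene of its subfamily, Cyp4f13 (-0.64), Cyp2c55 (-0.61), Cyp2r1 (-0.60), Cyp2j9 (-0.54) and Cyp3a13 (-0.50). Cyp2c55 and Cyp2c65, the Cyp2c genes at the end of the cluster that did not differ by the test in liver metastases, were thus called here. Cyp1a1 had 5.26 to 5.70 in islet tumours, against 5.87 to 6.18 in normal islets (-0.49 ± 0.18, adjusted p = 0.0437). Without Normal2006 the calls of Cyp2c55 (0.0504) and Cyp3a13 (0.0833) ended, and with the block that of Cyp2j9 (0.0616).

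**Figure D5:**
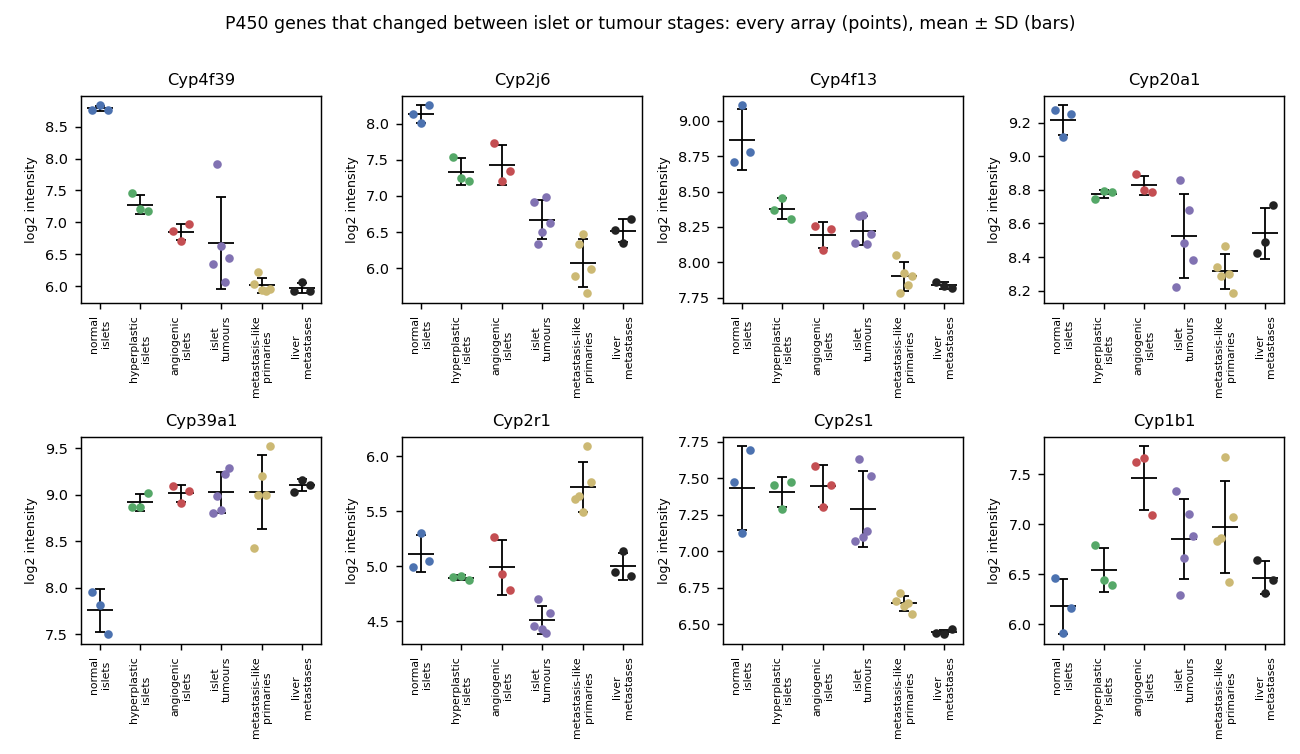
Log2 intensity of 8 P450 genes that changed between islet or tumour stages, on every array, with the mean and SD of each tissue as bars; each panel has its own scale. Cyp4f39 lies between 8.76 and 8.84 in normal islets and below 8 in all later samples, Cyp39a1 is lowest in normal islets, Cyp2r1 is highest in metastasis-like primaries, and Cyp2s1 is lower in metastasis-like primaries and liver metastases than elsewhere.

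In all, 57 members were called in at least 1 of the 7 comparisons and 24 in none. The share of all genes called in at least 1 of the 7 is not given here, so these counts have no background. Single comparisons called from 2.53% to 36.6% of all genes, and the F test 58.7%. The 24 include 3 of the 5 Cyp2b genes (Cyp2b13, Cyp2b19 and Cyp2b23), 3 of the 9 Cyp2d genes (Cyp2d11, Cyp2d12 and Cyp2d34), Cyp2j11, Cyp2j13, Cyp4f16, Cyp4f37, Cyp4f40, Cyp2c66, Cyp3a16 and 4 of the 5 steroid hormone genes. Cyp2c66 had 1 high array, HyperplasticI-93 at 7.17, with 5.47 to 6.51 on the others.

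Genes that act with or on P450 enzymes were read from lists of their own. Of 54 measured conjugating and other drug-metabolising genes, 34 were higher and 1 lower in liver metastases than in metastasis-like primaries, with a median of 0.89 log2, where 7.8% of all genes were higher. The glucuronosyltransferases Ugt2b36 (3.96 ± 0.21), Ugt2a3 (2.57) and Ugt2b34 (2.53) and the flavin monooxygenase Fmo5 (2.04) had the smallest p. In islet tumours 17 of the 54 were lower than in angiogenic islets and 0 higher, where 6.45% of all genes were lower. Against normal islets 16 were lower and 1 higher, where 16.1% of all genes were lower and 13% higher, led by Ugt2b34 (-4.69 ± 0.15) and the sulfotransferase Sult1d1 (-3.75 ± 0.22).

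Of 25 measured regulators of P450 genes, 6 were higher and 2 lower in liver metastases than in metastasis-like primaries, where 15.7% of all genes were called. The xenobiotic receptors Nr1i3, known as CAR (0.92 ± 0.10 log2), and Nr1i2, known as PXR (0.47 ± 0.09), the fatty acid receptor Ppara (0.50 ± 0.09) and Hnf4a (0.44 ± 0.10) rose. Between metastasis-like primaries and islet tumours 3 were higher and 7 lower, where 26.5% of all genes were called, with Nr1h4, the bile acid receptor, 1.65 ± 0.20 and Hnf4a 0.61 ± 0.09 higher, Ahr 0.68 ± 0.09 lower and Foxa3 1.10 ± 0.13 lower. The vitamin D receptor Vdr fell by 3.26 ± 0.22 in islet tumours against normal islets. Of 6 measured electron transfer partners, none passed the test between liver metastases and metastasis-like primaries (differences of -0.13 to 0.26), Por and Fdxr were not analysed here, and in metastasis-like primaries Pgrmc1 rose by 1.53 ± 0.10 and Cyb5r1 fell by 1.37 ± 0.13 against islet tumours.

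Of the P450 genes outside the symbol rule, Cyp51, the sterol demethylase of cholesterol synthesis, was higher in liver metastases than in metastasis-like primaries (0.42 ± 0.10 log2, adjusted p = 0.00485). The thromboxane synthase Tbxas1 was 0.48 ± 0.14 lower there, and the prostacyclin synthase Ptgis was not called (-0.12).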

How the data were processed

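Affymetrix Mouse Gene ST arrays were processed by the authors with aroma.affymetrix, per the series text. The range of the deposited values is that of log2 intensity. The sources used here name no background correction, summarization method or chip definition. Of 35511 probe sets, 23410 were listed in the platform annotation, 21789 with 1 symbol, 1621 with several and 12101 unlisted. The probe set with the highest mean was kept for each gene, leaving 19938 genes, and all 81 Cyp genes matched RefSeq by gene ID. One limma 3.58.1 model (R 4.3.3) held all 22 arrays and a mean for each of the groups, and genes were called at an adjusted p below 0.05 (two-sided, Benjamini-Hochberg over 19938 genes). The method was tested on simulated data. SE denotes the standard error of a difference from this fit and SD the spread of levels.

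The members, gene lists, motifs and naming rule were chosen with earlier results of these data known. Named were up to 10 called members per direction with the largest differences in each comparison, all members of the role lists, and up to 4 related genes per list with the smallest adjusted p. By the rule, levels per array were for the 12 members with the smallest F test p and for the role lists. Those of further members, such as Cyp4f39, Cyp2s1, Cyp2d26, Cyp4a14, Cyp2c70 and Cyp2b9, were added after their values were seen. Members outside these rules, named for a subfamily, a neighbour or a count, such as the smaller Cyp2d and Cyp2c differences, Cyp2d40, Cyp4b1, Cyp4f14, Cyp3a16 and Cyp2c66, were chosen after their values were seen.

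To learn whether title codes pair samples, deviations from the group means were correlated between arrays across genes. Hyperplastic and normal islets of 1 code gave 0.197 to 0.448, and angiogenic and hyperplastic islets 0.353 to 0.479, all above 0.1, so codes pair the islets. The main fit had no block, so the p-values and SE given for these comparisons leave this pairing out. The block kept all 6 calls of each of these comparisons. Tumours of 1 prefix gave -0.087 to 0.206 and were not paired. Alternatives were a code block, quantile normalization, a fit on the compared groups only, a filter on dim genes, centring on array medians, all probe sets, probe set means, array weights, a trended variance, a minimum of 1 log2, arrays of prefix I and leaving out each array. AngiogenicI-93 as the lone angiogenic array was added after seeing the data. Figures were drawn with matplotlib 3.10.9.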

Additional observations from a re-analysis of the deposited data

Results flagged for a closer look

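In groups of 5 arrays, a sample was singled out where its gap to the nearest other exceeded 0.71 of the group's range. Of 94 sets (47 named members in 2 groups) 6 met this, and chance gives about 1 in 20. In islet tumours, I-9811-tumor was the highest for Cyp2b10, with 5.86 beside 5.49 in the next array, and for Cyp2j5, with 5.48 beside 5.26. In metastasis-like primaries, III-8016-MLP was the lowest for Cyp27a1, with 6.70 beside 6.93, and the highest for Cyp2b9, with 5.17 beside 5.06. I-9812-MLP was the highest metastasis-like primary for Cyp2c70, with 5.91 beside 5.51, and it also had the highest hepatocyte marker mean of that group (6.89). II-6413-MLP was the lowest for Cyp2e1, with 4.84 beside 5.11. The part of any cell type in these values was not tested.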

How the results depend on the processing

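The shares of all genes called under the alternatives are not given here. Counts of called members stayed within 1.5 times the reported ones except as follows. With only the arrays of both groups, 3 were called for angiogenic against hyperplastic islets and 7 for islet tumours against angiogenic islets. The replicate block gave 8 for the second of these (2 higher, 6 lower). Within the limit of 1.5 times, it gave 9 for hyperplastic against normal islets. For islet tumours against normal islets it gave 16, also within the limit (7 higher, 9 lower, against 3 higher and 15 lower without it). Without the dimmest 25% of genes (27 members left, so fewer genes were tested) the counts were 3, 6, 9, 10, 15 and 22 for angiogenic against hyperplastic islets, islet tumours against angiogenic islets, islet tumours against normal islets, liver metastases against metastasis-like primaries, liver metastases against islet tumours, and the F test. With at least 1 log2, an additional requirement, they were 2 for hyperplastic against normal islets, 1 for angiogenic against hyperplastic islets, 4 for islet tumours against angiogenic islets, 3 for islet tumours against normal islets, 1 for metastasis-like primaries against islet tumours and 27 for liver metastases against islet tumours. AngiogenicI-93 as the lone angiogenic array gave 1 against hyperplastic islets and 9 for islet tumours against angiogenic islets, where Cyp2c29 turned to 0.034 log2 (adjusted p = 0.968). The cause was not tested.

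Leaving out each array in turn gave 4 to 7 calls for hyperplastic against normal islets, 1 to 18 for angiogenic against hyperplastic islets, 12 to 22 for islet tumours against angiogenic islets, 13 to 19 for islet tumours against normal islets, 5 to 8 for metastasis-like primaries against islet tumours, 35 to 38 for liver metastases against metastasis-like primaries, 39 to 43 for liver metastases against islet tumours and 55 to 59 for the F test. Of 1237 alternative values of 69 named differences, 1087 kept direction and call, 149 lost the call and 1 reversed, and 27 differences never lost it. For islet tumours against angiogenic islets, linked only through prefix I, the block kept 5 of 15 calls and ended, among others, those of Cyp46a1 (adjusted p = 0.0561), Cyp2e1 (0.0893) and Cyp3a11 (0.101).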
